A study of Mus musculus with 24 samples.

Results

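The 10 genes described here are Fbxo32, Trim63, Fkbp5, Tsc22d3, Cdkn1a, Mt1, Mt2, Sgk1, Zbtb16 and Klf9, a set of muscle atrophy genes and glucocorticoid targets. They were chosen by name, with earlier results of these data known. All 10 were found among the 20961 genes of the count table, and all 10 passed the filter on low counts that left 17203 genes for testing. RNA of mouse heart was sequenced from 3 inbred strains in both sexes, all labelled wild type with no treatment. The strains were C57BL/6J, the wild-derived CAST/EiJ and the obesity-prone NZO/HlLtJ. From week 6 the mice ate a diet labelled 10% fat with fiber, the control, or a diet labelled 44% fat with fiber, which is high in fat and sugar, and hearts were taken at week 15. The 12 combinations of strain, sex and diet had 2 libraries each, 24 in all. The study asked how genetic background alters the response to this diet in models of type 2 diabetes. The labels do not say whether the 2 libraries of a combination came from separate animals, so p-values measure only the spread between libraries, which may be technical.

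Glucocorticoids act through the glucocorticoid receptor, a hormone-activated transcription factor that binds response elements near its target genes. In striated muscle, glucocorticoids, fasting and disuse raise the atrogenes, above all the muscle ubiquitin ligases that mark proteins for the proteasome. FoxO transcription factors, which insulin signalling keeps out of the nucleus, drive the same ligases, and in heart the ligases also turn over contractile proteins.

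Total counts ran from 30205073 to 52254040 per library. Summed cardiomyocyte markers, among them Myh6 and Tnnt2, lay between 56700 and 69900 counts per 1e+06 counts of the library (CPM) in all 24 libraries. The fast skeletal muscle markers Myh4 and Tnnt3 stayed at or below 1.23 and 0.178 CPM. On the same list Myl1 reached 79.9 CPM, Ckm 1730 and Acta1 3430, and heart also expresses Ckm and Acta1. The sum of the whole list, given below, was higher in NZO/HlLtJ than in the other strains. The library names fall into 3 numeric ranges, which the labels do not describe as batches. In C57BL/6J and CAST/EiJ the 2 libraries of a combination always came from different ranges, the first and a later one. In NZO/HlLtJ they shared a range, and no NZO/HlLtJ library was in the first range, so strain and range are partly tied together. Diet in CAST/EiJ is tied to range as well, since both of its later libraries at 10% fat are in the second range and both at 44% fat in the third. In C57BL/6J the later male libraries are in the second range and the later female ones in the third, so sex is partly tied to range. In NZO/HlLtJ females at 10% and males at 44% fat are in the second range, and the other libraries in the third. Within each sex of NZO/HlLtJ, diet and range therefore cannot be told apart. Mitochondrial genes held 25.8% to 28.8% of counts in C57BL/6J, 20.2% to 23.4% in CAST/EiJ and 20.9% to 23.9% in NZO/HlLtJ, so this share moved with each comparison against C57BL/6J; its part in the strain differences was not tested. GRCm38, named in the submitters' processing notes, is the C57BL/6J genome, and how reads of the other strains were aligned is not given in the sources used here.

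Because longer transcripts give more reads, levels of different genes were set side by side as CPM per kilobase of exon, averaged over the 24 libraries. Exons of all annotated transcripts of a gene were merged. For Mt1 this gave 1 stretch of 1.25 kb, its whole gene, beside 3 exons and 0.588 kb for Mt2. The place of Mt1 in the order, also against Trim63, depends on this length. By these lengths Trim63, which encodes the ubiquitin ligase MuRF1 of the sarcomere, stood highest at 51 CPM per kb. Zbtb16, a zinc finger repressor induced by glucocorticoids, had 32.9. Fbxo32, which encodes the ubiquitin ligase atrogin-1, had 28.1, and Mt1, a metallothionein that binds zinc and copper, had 28. Klf9, a Krüppel-like transcription factor, had 16.9 and Tsc22d3, which encodes the glucocorticoid-induced leucine zipper GILZ, had 16.4. The second metallothionein, Mt2, had 10.6. Sgk1, a kinase that regulates ion transport, had 9.79, and Cdkn1a, which encodes the cell cycle inhibitor p21, had 9.65. Fkbp5, a co-chaperone that lowers the hormone affinity of the glucocorticoid receptor, was lowest at 4.77. With the same lengths, neighbours in this order, such as Fbxo32 and Mt1, changed places between strains. Mt1 had 35.2 CPM per kb in C57BL/6J against 32.3 for Fbxo32, but 20.2 against 27.1 in CAST/EiJ.

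**Figure D1:**
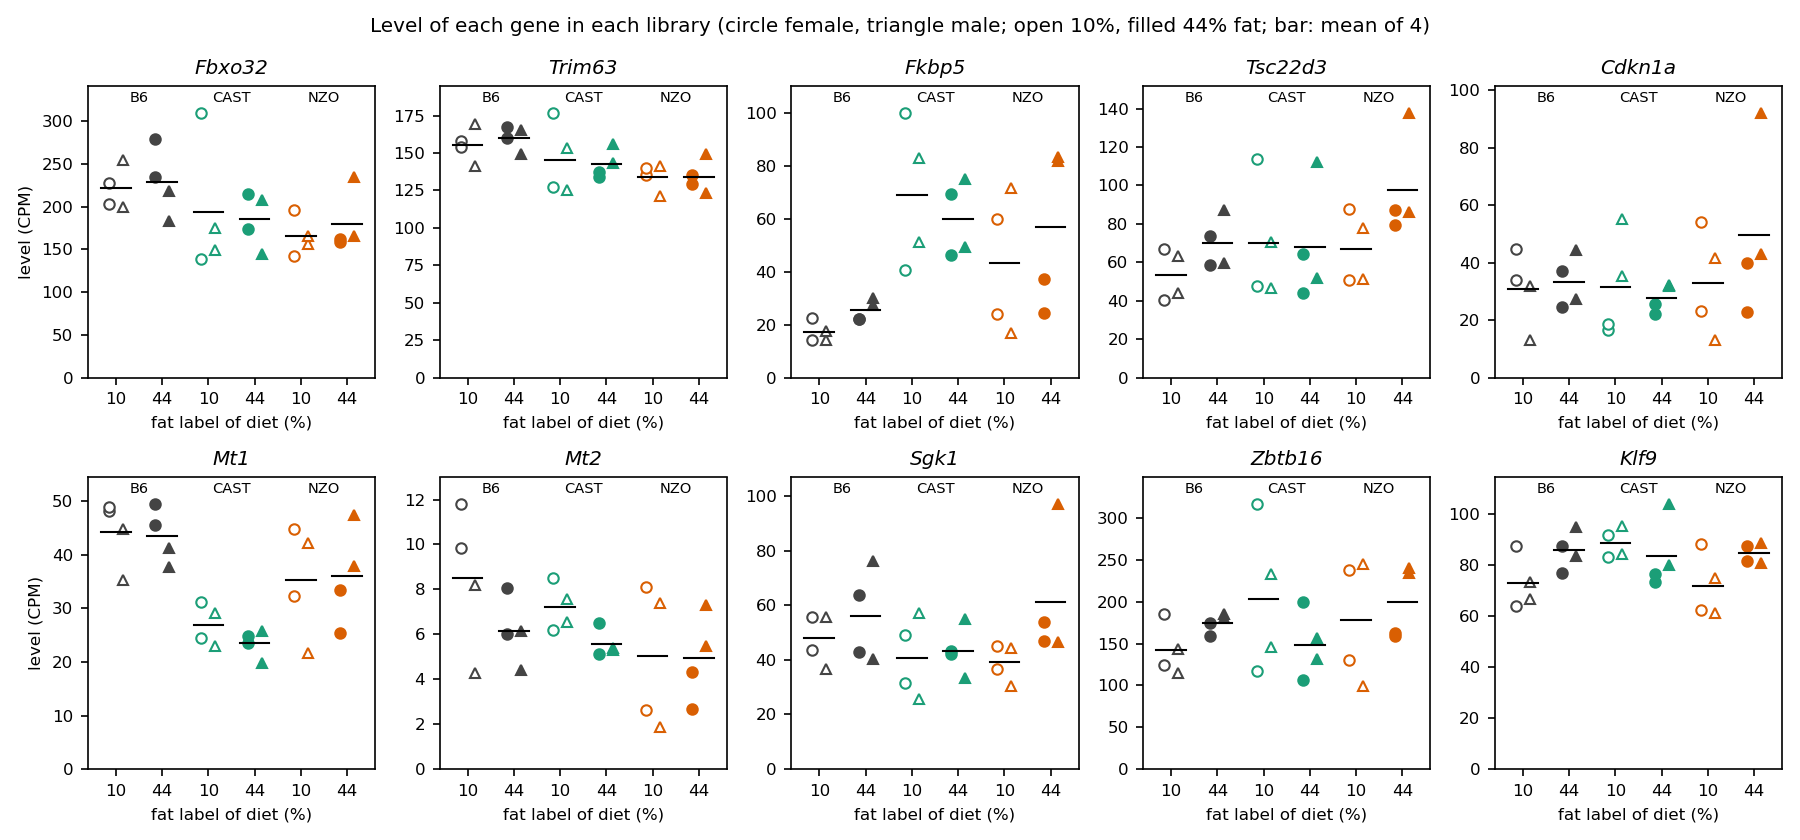
Level of each of the 10 genes in CPM (vertical axes, linear from 0) in all 24 libraries, by strain and fat label of the diet, with females as circles, males as triangles and a bar at the mean of 4 libraries. Fkbp5 was lower in C57BL/6J than in every CAST/EiJ library and spread from 16.8 to 83.3 CPM in NZO/HlLtJ, while Trim63 stayed between 121 and 177 CPM in all libraries.

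Since these genes are grouped as targets of shared factors, the sequence before their start sites was searched in RefSeq's GRCm38.p6 windows, which run from 250 bases before to 50 bases after a start. Windows were held for 8 of the 10 genes; Fbxo32 and Zbtb16 had none. The motifs searched on both strands were, for the glucocorticoid receptor, its palindromic glucocorticoid response element, TGCACNC and TGCGCNC for the metal response factor, GTAAACA for FoxO and CACGTG for the E-box. The 4 stretches printed are those with a receptor motif or with several metal motifs, and capitals mark the motif matches.
Trim63 (chr4:134314870-134315019, plus strand): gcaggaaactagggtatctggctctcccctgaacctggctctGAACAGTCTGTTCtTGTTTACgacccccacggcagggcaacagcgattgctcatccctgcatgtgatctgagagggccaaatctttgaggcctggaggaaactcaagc
Mt1 (chr8:94178839-94179118, plus strand): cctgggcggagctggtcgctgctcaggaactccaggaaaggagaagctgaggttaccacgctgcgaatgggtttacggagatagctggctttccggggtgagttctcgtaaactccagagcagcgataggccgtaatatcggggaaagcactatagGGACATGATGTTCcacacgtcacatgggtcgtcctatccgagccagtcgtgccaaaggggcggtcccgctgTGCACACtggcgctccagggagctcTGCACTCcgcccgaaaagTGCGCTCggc
Mt2 (chr8:94172368-94172647, plus strand): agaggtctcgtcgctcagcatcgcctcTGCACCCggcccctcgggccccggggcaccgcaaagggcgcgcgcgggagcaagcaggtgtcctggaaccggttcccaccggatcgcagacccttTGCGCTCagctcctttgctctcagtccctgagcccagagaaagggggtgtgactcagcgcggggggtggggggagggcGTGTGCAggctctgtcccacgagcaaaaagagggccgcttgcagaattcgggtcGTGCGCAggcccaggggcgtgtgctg
Sgk1 (chr10:21993640-21993789, plus strand): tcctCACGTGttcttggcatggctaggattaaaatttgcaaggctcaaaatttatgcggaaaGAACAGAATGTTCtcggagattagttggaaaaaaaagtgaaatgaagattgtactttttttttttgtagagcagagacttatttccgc

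The receptor motif matched in Trim63 at 208 to 196 bases before the start, directly followed by a FoxO match, TGTTTAC on the plus strand, which is GTAAACA on the other. It matched in Mt1 at 94 to 82 bases before the start and in a single Sgk1 window at 188 to 176 bases before that start, alongside an E-box. Of 32851 RefSeq promoter windows of the same length, 0.475% held this receptor motif, 3.65% the FoxO motif and 7.15% the E-box. Mt1 had 3 metal motif matches in either spelling and Mt2 had 4; 1.97% of all windows held at least 3 and 0.517% at least 4. The Klf9 window held a FoxO match, an Fkbp5 window an E-box and another Sgk1 window a metal motif. None of the motifs was spelled out in the windows of Tsc22d3 and Cdkn1a, which says nothing of the factors. These matches describe letters in a window and are not evidence of binding.

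The comparison of the 44% with the 10% fat diet over all strains asked whether the diet shifted the set. None of the 10 genes was called, where a call is an adjusted p under 0.05 in edgeR's quasi-likelihood test with Benjamini-Hochberg adjustment over all 17203 genes. The share called among all genes was 0.157%. None of the 10 had an unadjusted p under 0.05 either, and DESeq2 and limma-voom called none. The members' median log2 fold change was 0.08, beside -0.005 over all genes, with 7 of 10 above 0. The median was -0.02, with 4 of 10 above 0, without 3 libraries that stood apart in summed marker lists. These were the first male libraries of C57BL/6J and CAST/EiJ at 10% fat and the second NZO/HlLtJ male library at 44% fat. The C57BL/6J one was the lowest of its strain for 7 of the 10 genes and the NZO/HlLtJ one the highest for 8. Leaving them out therefore lowers the diet values.

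Of the ubiquitin ligases, Trim63 had 145 ± 17.5 CPM at 10% fat and 146 ± 14.4 at 44% (SD, n = 12 each). Its log2 fold change was 0.00, with a 95% interval from -0.12 to 0.12, the narrowest of the set. Fbxo32 had 193 ± 51.1 and 198 ± 40.2 CPM, with a log2 fold change of 0.04 (interval -0.24 to 0.32). Among the other targets Sgk1 had the largest value over all strains, a log2 fold change of 0.31 (interval -0.10 to 0.73) that was 0.08 without those 3 libraries, and Tsc22d3 had 0.29 (interval -0.15 to 0.73). Klf9 had 77.8 ± 12.2 and 84.6 ± 8.53 CPM, with a log2 fold change of 0.13 (interval -0.02 to 0.28). Mt2 was at -0.29 (interval -0.78 to 0.19). The intervals of Fkbp5, Tsc22d3, Cdkn1a, Mt2 and Sgk1 include changes of over 1.5-fold, so a shift of that size lay within the error of these libraries.

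Within single strains no member was called, beside 0.0407% of all genes in C57BL/6J, 0% in CAST/EiJ and 0% in NZO/HlLtJ. No member had an unadjusted p under 0.05 in any of the 3. The members' median log2 fold change was 0.19 in C57BL/6J and 0.18 in NZO/HlLtJ, with 8 of 10 above 0 in each. In CAST/EiJ the median was -0.07 with 1 of 10 above 0. With range as a term in the model 4 of 10 were above 0 there, and in the first range alone 7 of 10, with a median of 0.05. Single libraries moved these medians: from 0.19 to 0.03 in C57BL/6J without the first male library at 10% fat, from -0.07 to 0.06 in CAST/EiJ without the second female library at 10% fat, and from 0.18 to 0.01 in NZO/HlLtJ without the second female library at 10% fat. Over all genes the medians were -0.003, -0.006 and -0.006.

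Sgk1 in NZO/HlLtJ had the largest fold change. Its level was 45.2, 36.5, 30.6 and 44.2 CPM at 10% fat and 46.9, 53.7, 46.5 and 97.1 CPM at 44%. The groups did not overlap, as for 3.36% of all genes in that comparison, but the lowest values at 44% fat lay just above the highest at 10%. The log2 fold change was 0.62 (SE 0.33, edgeR adjusted p = 0.73), and 0.31 without the second male library at 44% fat, the one at 97.1 CPM, which is below the value of Fkbp5 in C57BL/6J. Fkbp5 in C57BL/6J had 14.3, 22.6, 14 and 17.7 CPM at 10% fat and 22, 22.1, 30.2 and 27.4 CPM at 44%. A single control library, the second female one, lay within the range of the high fat libraries. The log2 fold change was 0.55 (SE 0.46, edgeR adjusted p = 0.961). Tsc22d3 in NZO/HlLtJ went from 67 ± 18.7 to 97.6 ± 26.9 CPM (SD, n = 4 each), a log2 fold change of 0.53 with an edgeR adjusted p of 0.788, and 0.34 without that same library. Klf9 had 0.23 in C57BL/6J and 0.24 in NZO/HlLtJ, with intervals of -0.03 to 0.49 and -0.02 to 0.50, and -0.10 in CAST/EiJ.

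**Figure D2:**
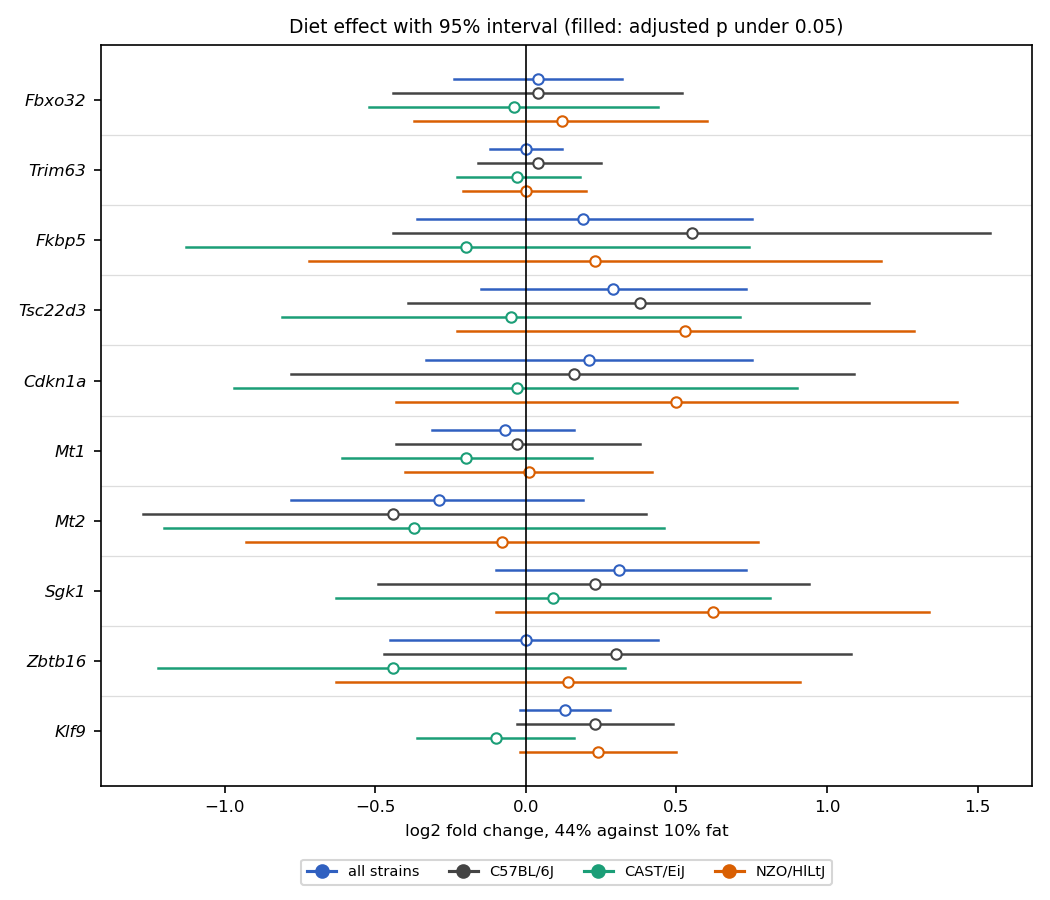
Log2 fold change of the 44% against the 10% fat diet for each gene (horizontal axis) with its 95% interval, over all strains and in each strain, where a filled point would mark an edgeR adjusted p under 0.05. No point is filled, and every interval includes 0.

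Whether the diet effect differed between strains was tested by the interaction itself. No member was called in any of the 3 interactions, beside 0% of all genes for CAST/EiJ against C57BL/6J, 0.00581% for NZO/HlLtJ against C57BL/6J and 0% for NZO/HlLtJ against CAST/EiJ, and none had an unadjusted p under 0.05. For NZO/HlLtJ against CAST/EiJ all 10 differences were above 0, with a median of 0.38 against 0.001 over all genes. Zbtb16 had the largest of them, 0.58 (interval -0.51 to 1.67), and Tsc22d3 had 0.57 (interval -0.50 to 1.65). The genes moved together between libraries, as described below for libraries of the same group, so these 10 signs are not 10 independent observations. The later CAST/EiJ libraries at 44% fat are also in another name range than those at 10%. In the third range 9 of the 10 members were lower than in the second, but 0 were called, beside 0% of all genes, and every interval included 0. With range as a term 9 of 10 differences were above 0, with a median of 0.31, and leaving out single libraries moved the median between 0.18 and 0.70. Between males and females no member was called, beside 0.372% of all genes; none had an unadjusted p under 0.05, and the members' median was 0.02.

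Strain separated a few members. In CAST/EiJ against C57BL/6J, 2 of 10 were called, Fkbp5 higher and Mt1 lower, beside 58.8% of all genes (29.1% higher and 29.7% lower). In NZO/HlLtJ against C57BL/6J, 2 were called, Fkbp5 higher and Trim63 lower, beside 35.5% (17.9% higher and 17.6% lower). In NZO/HlLtJ against CAST/EiJ, 1 was called, Mt1 higher, beside 60.3% (30.5% higher and 29.8% lower). Each count is a smaller share of the set than of all genes. Fbxo32, Tsc22d3, Cdkn1a, Mt2, Sgk1, Zbtb16 and Klf9 were called in none of the 3, with log2 differences between -0.54, for Mt2, and 0.47, for Cdkn1a.

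Fkbp5 showed the largest strain difference of the set. In C57BL/6J it ranged from 14 to 30.2 CPM with a median of 22.1, in CAST/EiJ from 40.7 to 100 with a median of 60.3, and in NZO/HlLtJ from 16.8 to 83.3 with a median of 48.6. Every CAST/EiJ library lay above every C57BL/6J library, whereas the NZO/HlLtJ libraries overlapped both. Non-overlap of CAST/EiJ and C57BL/6J was seen in 27% of all genes. The mean was 21.3 ± 5.77 CPM in C57BL/6J and 64.4 ± 20.9 in CAST/EiJ (SD, n = 8 each), a log2 difference of 1.63 (SE 0.32, edgeR adjusted p = 0.000706) or 3.09-fold. Within the first name range alone, where 4 libraries of each strain remain, the means were 20.1 ± 7.64 and 46.9 ± 4.63 CPM and the log2 difference 1.29 (edgeR adjusted p = 3e-07). In that range 5 members were called, beside 7404 of all genes. Fbxo32 (-0.56, adjusted p = 0.000176), Sgk1 (-0.31, adjusted p = 0.00177) and Klf9 (0.15, adjusted p = 0.0333) also passed with edgeR. That fit grouped libraries by strain and diet with sex as a term, since the range holds a single library per strain, sex and diet.

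In NZO/HlLtJ Fkbp5 averaged 49.9 ± 27.4 CPM (SD, n = 8), a log2 difference from C57BL/6J of 1.17 (SE 0.32, edgeR adjusted p = 0.0122). This call was lost with name range as a term in the model (0.91, edgeR adjusted p = 0.0727). In that model Fbxo32 passed instead (-0.53, edgeR adjusted p = 0.0313). The Fkbp5 call was also lost, at a log2 difference of 1.12, without the 3 libraries apart in summed marker lists named above. The C57BL/6J library had 47 CPM of summed B and plasma cell markers, where the other 7 of its strain had 6.76 to 10, and the CAST/EiJ library had 423 CPM of brown adipocyte markers, where the other 7 had 181 to 255. The NZO/HlLtJ library had 4850 CPM of skeletal muscle markers, where the other 7 had 2610 to 3520. That list is led by Ckm and Acta1, which heart also expresses. The first male library of the same group had 31.8 CPM of B and plasma cell markers, where the others of its strain had 8.44 to 13.6, and was kept, since the group has no other library. In another fit that left out the first NZO/HlLtJ female library at 10% fat in place of the male one, although its skeletal muscle sum of 2940 CPM lay within its strain, Fkbp5 was at 0.92 (edgeR adjusted p = 0.0831) and Mt2 passed (-0.89, edgeR adjusted p = 0.0278). The 3 low NZO/HlLtJ values, 24.1, 24.4 and 16.8 CPM, lay within the C57BL/6J range and the other 5 above it. CAST/EiJ and NZO/HlLtJ did not differ beyond their spread (log2 difference -0.46, edgeR adjusted p = 0.216).

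Mt1 had the opposite order. It ranged from 35.3 to 49.5 CPM in C57BL/6J with a median of 45.2, and from 19.8 to 31.2 in CAST/EiJ with a median of 24.7, with no overlap. In NZO/HlLtJ it ranged from 21.6 to 47.5 CPM, with a median of 35.6, and overlapped both. The log2 difference of CAST/EiJ from C57BL/6J was -0.80 (SE 0.14, edgeR adjusted p = 0.000153). NZO/HlLtJ was higher than CAST/EiJ by 0.49 (SE 0.14, edgeR adjusted p = 0.00628); without the 3 libraries apart in other markers the value was 0.40 (edgeR adjusted p = 0.0498). With the NZO/HlLtJ female library left out in place of the male one it was 0.38 (edgeR adjusted p = 0.0503), and Klf9 passed in its place (-0.23, edgeR adjusted p = 0.0359). C57BL/6J and NZO/HlLtJ did not differ by the test (-0.31, edgeR adjusted p = 0.0898), although limma-voom put this at an adjusted p of 0.0334. Mt2, whose gene lies beside Mt1 on chromosome 8, was at 7.34 ± 2.65, 6.39 ± 1.18 and 4.98 ± 2.45 CPM (SD, n = 8 each) in C57BL/6J, CAST/EiJ and NZO/HlLtJ and was not called.

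The ubiquitin ligases were both highest in C57BL/6J on average. Trim63 had 158 ± 9.49 CPM in C57BL/6J, 144 ± 17.5 in CAST/EiJ and 134 ± 9.47 in NZO/HlLtJ (SD, n = 8 each). The NZO/HlLtJ value was lower than that of C57BL/6J by a small step, a log2 difference of -0.23 (SE 0.07, edgeR adjusted p = 0.0129). Trim63 in CAST/EiJ was not called against C57BL/6J, but passed without the 3 libraries apart in other markers (-0.20, edgeR adjusted p = 0.0158). Summed skeletal muscle markers, 10 of 12 measured and led by Ckm and Acta1, which heart also expresses, were 2610 to 4850 CPM in NZO/HlLtJ and 1310 to 1770 in the other strains. Myh4 was at 0 in 9 libraries. Summed fibroblast markers also set NZO/HlLtJ apart, at 1070 to 1390 CPM against 817 to 869 in C57BL/6J and 670 to 837 in CAST/EiJ. Summed red blood cell markers ran from 2890 to 25800 CPM over all libraries. Their medians at 10% and 44% fat were 4960 and 5740 CPM in C57BL/6J, 10400 and 11600 in CAST/EiJ, and 11300 and 7780 in NZO/HlLtJ. The part of these marker groups in the strain differences was not tested. Fbxo32 had 225 ± 31.1, 189 ± 56.5 and 173 ± 29.6 CPM in C57BL/6J, CAST/EiJ and NZO/HlLtJ. Its log2 difference of NZO/HlLtJ from C57BL/6J was -0.38 (SE 0.16, edgeR adjusted p = 0.0774), and it passed the threshold in DESeq2 (adjusted p = 0.0462) and limma-voom (adjusted p = 0.0378). For CAST/EiJ against C57BL/6J Fbxo32 was at -0.25 (edgeR adjusted p = 0.185), and at -0.43 (edgeR adjusted p = 0.00776) without the second CAST/EiJ female library at 10% fat, the highest of all at 310 CPM. An antisense gene, Gm15943, shares 186 exon bases with Fbxo32, and reads of the pair cannot be told apart without strand. Another, Gm45774, shares 432 with Mt2, whose merged exons span 0.588 kb. AC167363.2, also on the opposite strand, shares 273 exon bases with Cdkn1a.

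**Figure D3:**
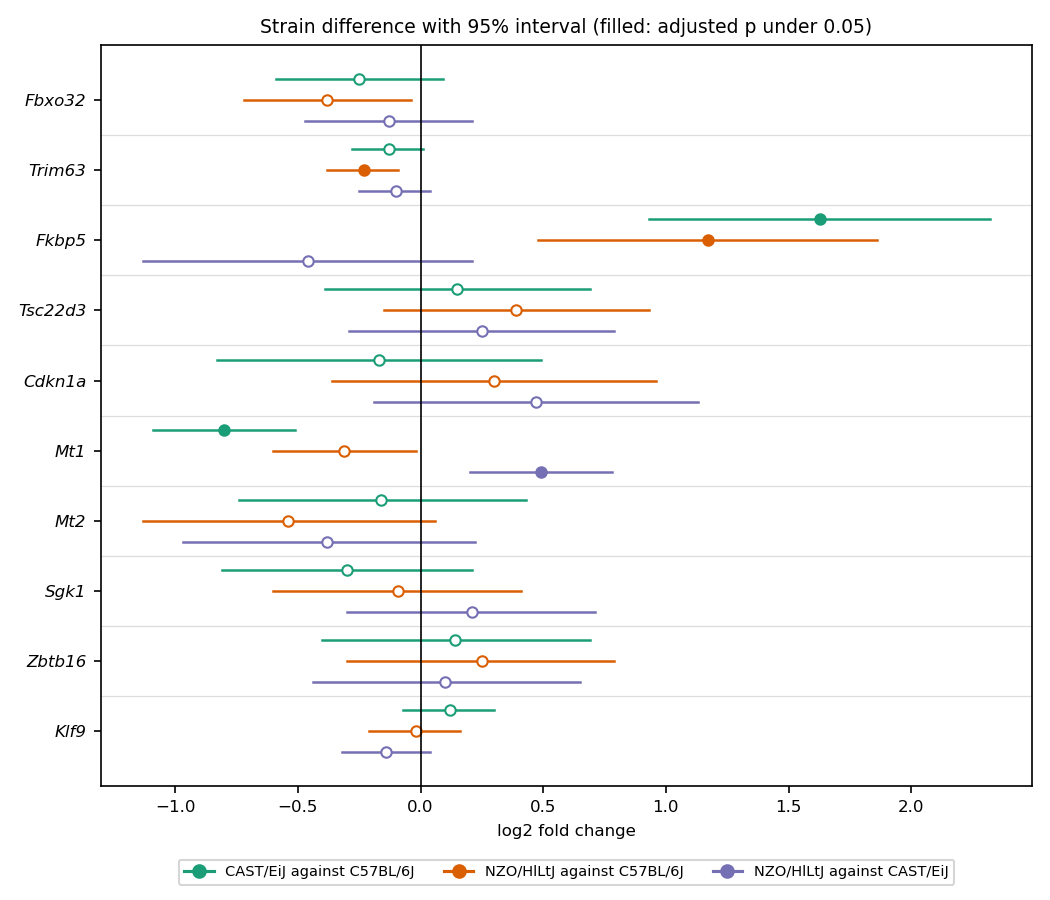
Log2 difference between strains for each gene (horizontal axis) with its 95% interval; filled points have an edgeR adjusted p under 0.05. Filled points appear for Fkbp5 at 1.63 and 1.17, Mt1 at -0.80 and 0.49, and Trim63 at -0.23.

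The pathway around these genes was described with 7 lists, which overlap in part. No gene of any list was called for diet over all strains, within a strain or in an interaction. The glucocorticoid receptor gene itself, Nr3c1, had 106 ± 5.61 CPM in C57BL/6J, 101 ± 5.29 in CAST/EiJ and 101 ± 9.93 in NZO/HlLtJ (SD, n = 8 each), and no strain or diet call. Hsd11b1, whose enzyme regenerates active glucocorticoid inside cells, was higher in CAST/EiJ than in C57BL/6J by 0.89 on the log2 scale (edgeR adjusted p = 0.000304), from 8.22 ± 3.42 to 15.1 ± 9.41 CPM (SD, n = 8 each). The highest CAST/EiJ library, the first male one at 10% fat, had 38.1 CPM beside a strain median of 12.2, and without it the difference was 0.66. That library also had the 423 CPM of brown adipocyte markers given above and the highest white adipocyte sum of all libraries, 747 CPM. The part of these markers in its Hsd11b1 level was not tested. Of 9 measured genes of this receptor axis, 3 were higher and 2 lower in CAST/EiJ than in C57BL/6J, and 0 higher and 1 lower in NZO/HlLtJ. These are 55.6% and 11.1% of the list, beside 58.8% and 35.5% of all genes. Fkbp4, the co-chaperone most like Fkbp5, was lower in CAST/EiJ by -0.41 on the log2 scale (edgeR adjusted p = 1.96e-06), against the higher Fkbp5.

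Of 26 other glucocorticoid-responsive genes, 4 were higher and 8 lower in CAST/EiJ than in C57BL/6J, with a median of -0.10. In NZO/HlLtJ 4 were higher and 2 lower, with a median of 0.16. The called shares were 46.2% and 23.1%, both under those of all genes. Cdkn1c, an inhibitor related to p21, was 2.07-fold higher in CAST/EiJ, and Rgs2, a regulator of G protein signalling, was lower there by -1.53 on the log2 scale. For the diet in NZO/HlLtJ the list's median was 0.34 with 19 of 26 above 0 and none called, beside -0.006 over all genes. Of 30 FoxO factors and other atrophy genes, 11 were higher and 7 lower in CAST/EiJ than in C57BL/6J, and 6 higher and 5 lower in NZO/HlLtJ, or 60% and 36.7% of the list, near the shares of all genes. Trim55, a paralog of Trim63, was higher in both strains than in C57BL/6J, by 0.40 and 0.15 on the log2 scale, while Trim63 was at -0.13 and -0.23. Of 17 other p53 targets, 4 were higher and 3 lower in CAST/EiJ, Ccng1 the most clearly at -0.87. Of 7 measured metal-responsive genes, 2 were higher and 1 lower in CAST/EiJ. The called shares of these 2 lists, 41.2% and 42.9%, were under the 58.8% of all genes. The lower metal-responsive gene was Mt3, the brain-type metallothionein, at -2.22. Mt1 was lower there too, while Mt2, at -0.16, was not called.

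The 2 libraries of the same strain, sex and diet differed widely from each other in several of these genes. The median size of the log2 difference between the 2 libraries of a combination was 0.68 for Cdkn1a, 0.60 for Fkbp5, 0.60 for Tsc22d3 and 0.59 for Sgk1, against 0.13 for the median gene of at least 1 CPM. For Cdkn1a 98.6% of 13045 such genes had a smaller value. Trim63, at 0.14, and Klf9, at 0.18, were near the ordinary gene. The largest single contrast was in NZO/HlLtJ males at 10% fat, where the first library had 16.8 CPM of Fkbp5, 99 of Zbtb16, 12.9 of Cdkn1a and 1.89 of Mt2, and the second had 71.5, 245, 41.6 and 7.40. The first of these libraries was the lowest of 8 in its strain for 7 of the 10 genes. The second NZO/HlLtJ male library at 44% fat was the highest for 8 of the 10, with 97.1 CPM of Sgk1, 138 of Tsc22d3 and 92.2 of Cdkn1a. This library also had the highest sum of skeletal muscle markers, as given above, and their part in its levels was not tested.

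These differences were shared between genes. After subtracting each combination's mean, 40 of the 45 pairs of members correlated positively over the 24 libraries, with Pearson's r from -0.39 to 0.90. The 2 deviations of a combination mirror each other, so each r rests on 12 differences. By an exact two-sided test over all swaps of the 2 libraries within combinations, adjusted over the 45 pairs, 11 pairs passed, all positive. With Spearman's rho 13 passed. For single members, 4.01% to 11.5% of all genes of at least 1 CPM had an unadjusted exact p under 0.05, and among the 9 other members the count ran from 0 with Trim63 and 1 with Mt2 through 3 with Mt1 and 4 with Sgk1 to 7 with Cdkn1a and with Klf9. Fbxo32 and Zbtb16 had 5 and Fkbp5 and Tsc22d3 had 6.

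Tsc22d3, Cdkn1a, Sgk1 and Klf9 passed in every pair among them, and Fkbp5 passed with 3 of these 4. Tsc22d3 and Klf9 had r = 0.85 (rho 0.88, exact adjusted p = 0.011) and Tsc22d3 and Sgk1 r = 0.84 (rho 0.82, exact adjusted p = 0.011). Cdkn1a and Klf9 had r = 0.74 (rho 0.75, exact adjusted p = 0.011) and differed in the same direction in 12 of 12 combinations. Without the 2 libraries of the combination in which the first gene named differed most, these r were 0.90, 0.84 and 0.72. Fbxo32 passed with Fkbp5 (r = 0.65, rho 0.71, exact adjusted p = 0.011), and Cdkn1a with Zbtb16 (r = 0.62, rho 0.65, exact adjusted p = 0.04). The highest r was that of Fkbp5 and Zbtb16, 0.90, with an exact adjusted p of 0.0542 (rho 0.85, exact adjusted p = 0.0456). Mt1 and Mt2 had r = 0.81 (rho 0.72, exact adjusted p = 0.0868). Trim63 had an unadjusted exact p under 0.05 with none of the other 9, including Fbxo32 (r = 0.55, and 0.16 without CAST/EiJ females at 10% fat).

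**Figure D4:**
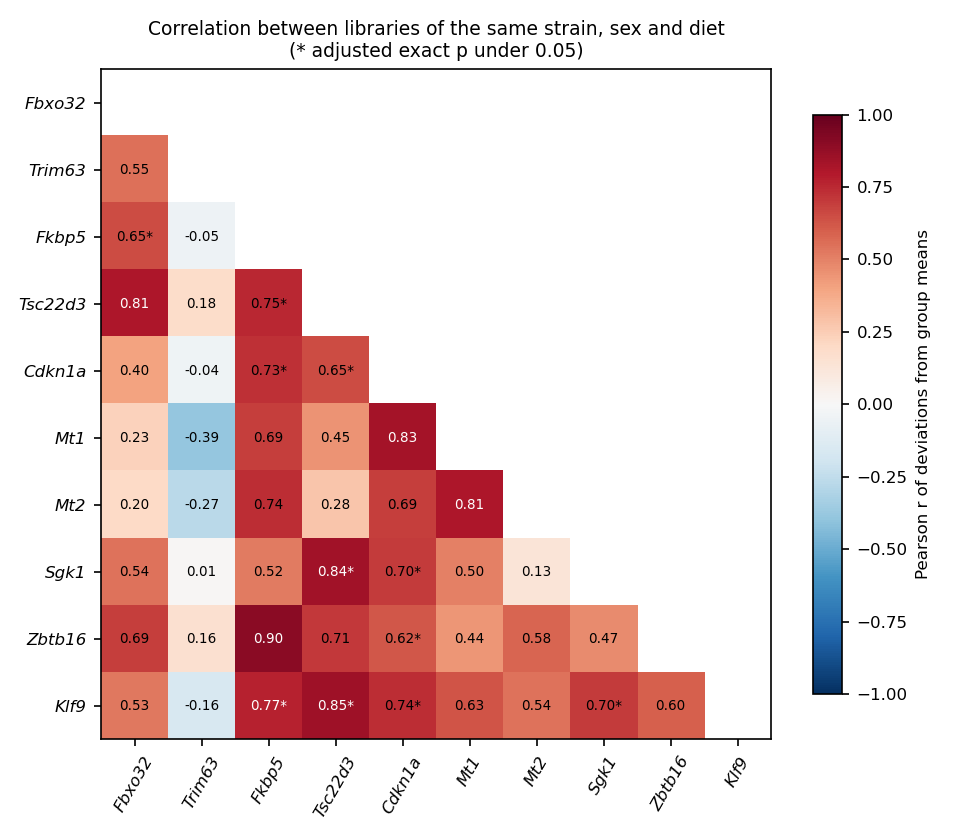
Pearson correlation of each pair of the 10 genes over 24 libraries after subtraction of the mean of each strain, sex and diet, with the colour scale from -1 to 1 and a star for an exact adjusted p under 0.05. Stars mark 11 pairs, most of them among Fkbp5, Tsc22d3, Cdkn1a, Sgk1 and Klf9, and the Trim63 row and column hold none.

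Name range moved with these genes. Tsc22d3 had 49.1 ± 7.02 CPM in the first range, 87.3 ± 27.9 in the second and 76.6 ± 18 in the third (SD, n = 8 each). These means mix strain with range, since the first range holds no NZO/HlLtJ library. With strain, sex and diet in the model, its log2 differences from the first range were 0.73 and 0.68, neither called. In a model with strain, sex and diet all 10 members had a log2 difference above 0 between the second range and the first, with 0 called, beside 0.00581% of all genes; Sgk1 had the smallest unadjusted p, 0.00344, at a log2 difference of 0.83 (edgeR adjusted p = 0.387). With range differences removed, no pair passed the exact test, and the r of Tsc22d3 and Sgk1 fell from 0.84 to 0.63, that of Tsc22d3 and Klf9 from 0.85 to 0.75 and that of Fkbp5 and Zbtb16 from 0.90 to 0.88. In NZO/HlLtJ, whose 2 libraries per combination share a range, the r over 8 libraries were 0.87, 0.88 and 0.98. They rest on only 1 difference per combination and are given as a description. The count of 11 also moved with single combinations, to 19 without C57BL/6J females at 44% fat and 19 without CAST/EiJ females at 10% fat, and was 8 at the lowest.

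Per1, a clock gene that is also a direct glucocorticoid target, varied with the same members. Its r was 0.92 with Tsc22d3 (rho 0.93, exact adjusted p = 0.0195), 0.84 with Sgk1 (rho 0.87, exact adjusted p = 0.0146), 0.84 with Klf9 (rho 0.89, exact adjusted p = 0.0195) and 0.55 with Cdkn1a (rho 0.63, exact adjusted p = 0.0256), adjusted over 30 pairs. With range differences removed these r were 0.81, 0.67, 0.73 and 0.35. The clock output gene Dbp and the core clock gene Arntl passed with no member; the lowest r was -0.67, for Dbp with Cdkn1a (rho -0.70, exact adjusted p = 0.0938). The part of the time of day or of hormone level in these differences was not tested.

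Over the 26 other glucocorticoid-responsive genes, the median r was 0.71 with Tsc22d3, 0.65 with Klf9, 0.64 with Fkbp5 and 0.04 with Trim63. An r of at least 0.5 was reached by 20 of the 26 with Tsc22d3, beside 9.34% of all genes of at least 1 CPM, and by 16 with Fkbp5, beside 6.91%. Range differences, whose removal left no member pair passing, were not removed from any r of this paragraph. The p53 targets showed a median r of -0.09 with Cdkn1a, although that gene is itself a p53 target. Genes most like each member by this r over 24 libraries were Sesn1 for Fbxo32 (0.96), Ipo5 for Trim63 (0.84), Map3k6 for Fkbp5 (0.96), Snrk for Tsc22d3 (0.97), Rbp7 for Cdkn1a (0.90), Zmynd8 for Mt1 (0.87), Nt5e for Mt2 (0.91), Ddit4 for Sgk1 (0.96), Klf15 for Zbtb16 (0.92) and Arrdc2 for Klf9 (0.96). These were picked as the highest of 13045, so their size is a description.

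Fkbp5 and Zbtb16 stood in different proportions in C57BL/6J and CAST/EiJ. The ratio of Fkbp5 to Zbtb16 CPM, a quantity chosen after the values were seen and given with no test, ran from 0.116 to 0.163 in C57BL/6J with a median of 0.124. In CAST/EiJ it ran from 0.314 to 0.565 with a median of 0.35, above every C57BL/6J library in each name range. In NZO/HlLtJ it ran from 0.154 to 0.347 with a median of 0.24, and overlapped both. Over the 8 C57BL/6J libraries the SD of the log2 ratio was 0.18, smaller than the SD of log2 Fkbp5, 0.40, and of log2 Zbtb16, 0.27. In CAST/EiJ these SD were 0.28, 0.46 and 0.53, and in NZO/HlLtJ 0.46, 0.91 and 0.49, so the ratio there varied about as much as Zbtb16. Zbtb16 itself had 158 ± 27.9, 176 ± 71 and 189 ± 57.9 CPM in C57BL/6J, CAST/EiJ and NZO/HlLtJ (SD, n = 8 each) and no strain call. The higher ratio in CAST/EiJ than in C57BL/6J is therefore largely the Fkbp5 difference given above, and not a separate result.

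**Figure D5:**
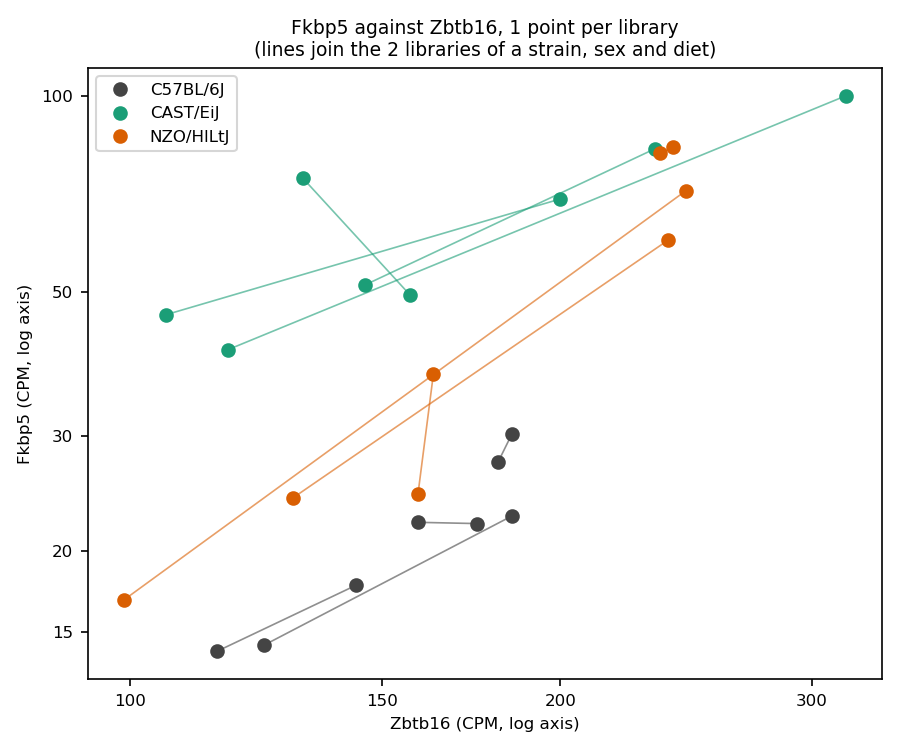
Fkbp5 against Zbtb16 in CPM, both on log axes, with a point per library coloured by strain and lines joining the 2 libraries of a strain, sex and diet. The CAST/EiJ points lie above the C57BL/6J points at like Zbtb16 levels, with median ratios of 0.35 and 0.124.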

How the data were processed

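Poly(A) RNA of heart was sequenced as paired reads in 24 libraries, per the labels' protocols. The deposited count table holds estimated counts per gene, of which 19.3% were not whole and were rounded. The submitters' processing notes list GRCm38 and DESeq2 without a role; aligner, counter and strand: not given in the sources used here. Gene starts and ends come from the deposited annotation, and exon lengths from GENCODE M21. Libraries were grouped by the labelled strain, sex and diet. edgeR 4.0.16 in R 4.3.3 fitted 12 group means to all 24 libraries (TMM scaling, filterByExpr with a minimum count of 10 and total of 15, robust quasi-likelihood), and 11 contrasts were tested over 17203 genes. CPM use TMM library sizes; correlations use log2 CPM with a prior count of 0.5. TMM factors ran from 0.954 to 1.06, and members had 61 to 13082 counts per library.

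The members and lists were chosen with earlier results of these data known. Named list genes are those with the smallest adjusted p, up to 3 a list for diet and 3 for strain; the likest genes are those with the highest r. Alternatives were DESeq2 1.42.0, limma-voom (limma 3.58.1), other size factors, no filter, name range as a term, fewer libraries and leaving out each library. The contrasts between name ranges, and the fit without 3 libraries apart by marker sums, were added after the values were seen. Scripts were tested on simulated data. Correlations were computed in Python 3.11.15.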

Additional observations from a re-analysis of the deposited data

Results flagged for a closer look

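Fbxo32 in the second NZO/HlLtJ male library at 44% fat stood apart from the other 3 NZO/HlLtJ libraries on that diet. Its level was 235 CPM, and the others had 162, 158 and 165. The gap on the log2 scale was 0.886 of the group's range, above the limit of 0.829 for 4 libraries. Of 60 groups of 4 tested over the 10 genes this was the only 1 past the limit, and chance alone passes about 1 in 20. The same library was the highest of its strain for 8 of the 10 genes and for summed skeletal muscle markers, with 4850 CPM against 2610 to 3520 in the other 7; their part was not tested.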

How the results depend on the processing

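No paired analysis was possible because the labels carry no replicate numbers. No result changed direction while called. Leaving out each library in turn lost none of the 5 strain calls and added 12 calls of single members. Members called stayed at 0 in every diet comparison and interaction under every alternative run, and for sex except within the first name range (1 called: Mt1, -0.38, edgeR adjusted p = 0.014). Leave-one-out counts of members called ran from 2 to 4 for CAST/EiJ against C57BL/6J (4 without the second CAST/EiJ female library at 10% fat) and from 2 to 4 for NZO/HlLtJ against C57BL/6J (4 without the second NZO/HlLtJ male library at 10% fat). For NZO/HlLtJ against CAST/EiJ they ran from 1 to 3 (3 without that same male library, 2 without the first CAST/EiJ or the first NZO/HlLtJ female library at 10% fat). In the first name range 5 members were called for CAST/EiJ against C57BL/6J, beside 7404 of all genes. The same counts were 4 for NZO/HlLtJ against C57BL/6J with limma-voom and 2 for NZO/HlLtJ against CAST/EiJ with name range as a term. Correlated pairs went from 11 to 0 with range differences removed, and from 8 to 19 in leave-one-out.

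Counts over all genes moved most for diet. With DESeq2 they were 105 for diet over all strains, 38 in C57BL/6J, 29 in CAST/EiJ and 13 in NZO/HlLtJ, 137 for sex, and 9, 4 and 3 for the diet interactions of CAST/EiJ with C57BL/6J, NZO/HlLtJ with C57BL/6J and NZO/HlLtJ with CAST/EiJ. With name range as a term they were 17 for diet over all strains, 4 in CAST/EiJ and 4 for the interaction of CAST/EiJ with C57BL/6J. In the first range alone they were 0 for diet in C57BL/6J, 17 in CAST/EiJ and 111 for sex. Without the 3 libraries apart by marker sums, an alternative chosen after seeing the data, they were 2 for diet in CAST/EiJ and 38 for sex, and members called fell to 1 for NZO/HlLtJ against C57BL/6J. With the first NZO/HlLtJ female library at 10% fat left out in place of the male one they were 1 for diet over all strains, 1 in C57BL/6J and 0 for the interaction of NZO/HlLtJ with C57BL/6J. With only the strains compared they were 36 for diet in C57BL/6J and 0 for that interaction, which was 0 with limma-voom too, and with other size factors 1 for CAST/EiJ with C57BL/6J. In leave-one-out they ran from 4 to 143 for diet over all strains, 1 to 20 in C57BL/6J, 0 to 18 in CAST/EiJ, 0 to 113 in NZO/HlLtJ, 39 to 78 for sex, and 0 to 8, 0 to 3 and 0 to 4 for the interactions in the order above. The causes were not tested. Within a strain the SE of the diet effect was 0.33 for Sgk1 and up to 0.46 for Fkbp5 on the log2 scale, which limits what 2 libraries a group can show.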
